A study of Caenorhabditis elegans with 32 samples.

Results

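Ageing of adult Caenorhabditis elegans that lack most of their germline was followed in the mRNA of glp-1(e2141) control animals at day 12 and day 2 of adulthood. The members are the transcripts of the control table whose FPKM estimate (read fragments scaled to transcript length and to library size) carries the status OK at both ages and reaches 1 at one age or both. Of 46971 transcripts in the table, 17683 met this rule, 15965 with protein-coding and 1718 with non-coding identifiers. A further 28202 stayed under 1 FPKM at both ages, and 1086 had another status at one age at least. Of the members, 14621 reached 1 FPKM at both ages, 1739 at day 12 alone and 1323 at day 2 alone. Just inside the limit lay unc-41 (NM_001269230, 0.242 FPKM at day 12 and 1.0006 at day 2), clec-12 (1.00083 and 0.758) and osm-5 (1.0009 and 0.618). Just outside it, and so not members, were ZC504.9 (0.998 and 0), arcp-1 (0.999 and 0.922) and grl-2 (0.287 and 0.9995).

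The day 12 and day 2 groups hold 2 libraries each, which the authors combined into 1 FPKM value per age, so the control values have no replicate spread and no p-value was computed from them. All animals were whole glp-1(e2141) adults, hatched and grown at 25 °C from stocks kept at 16 °C, on E. coli OP50 with carbenicillin and tetracycline, and those of day 12 were fed anew on day 4. The study used them as controls for double mutants that also carry met-1(n4337), to ask how loss of an H3 lysine 36 methyltransferase gene alters expression with age. Poly-A RNA was sequenced. Neither the number of animals per library nor whether the libraries of an age came from separate cultures is given in the labels. Libraries of glp-1(e2141) animals labelled L4440 (the empty vector used in feeding RNA interference; 2 libraries at day 12 and 2 at day 2), and pooled values of double mutants and of untreated glp-1(e2141) animals grown alongside the chromatin samples, serve here as other samples of the same age step. The sequencing depth of the control table is unknown.

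The e2141 allele of the Notch receptor gene glp-1 stops germ cells from multiplying at the restrictive temperature, so the adults are mainly somatic tissue, namely intestine, hypodermis, muscle and neurons. After larval development the soma of the worm no longer divides. Young adults still make cuticle collagens in the hypodermis and yolk proteins in the intestine, and animals without germ cells are known for a long life and large fat stores.

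At day 12, 52 of 80 collagen, 42 of 54 respiratory chain, 20 of 33 glycolysis and 37 of 79 sarcomere transcripts were at least 2-fold lower than at day 2. Among gene families with members on the higher side, insulin-like peptides had 15 of 36 transcripts at least 2-fold higher and 2 lower, while lysozymes, saposin-like proteins and antimicrobial peptides split into 29 higher and 27 lower of 82. In all, 2506 of 17683 transcripts (14.2%) were at least 2-fold higher and 2758 (15.6%) at least 2-fold lower at day 12, counted as a difference of 1 or more in log2(FPKM + 1). A 4-fold difference was reached by 885 transcripts (5%) in the higher and 958 (5.42%) in the lower direction. The median difference was 0.00, with quartiles at −0.58 and 0.53. Among protein-coding transcripts 11.5% were higher and 14.4% lower, and among non-coding ones 39.3% and 27%. The most abundant coding transcripts, those reaching 100 FPKM at one age, leaned downward, with 15.1% higher and 30.9% lower of 2413. In the 3 bins below, 9.76% to 12.1% of coding transcripts were higher and 9.65% to 13.7% lower. Coding transcripts of chromosome X were higher in 9.68% and lower in 17.5% of 2521, and those of chromosome V in 16.2% and 16.5% of 3440. The 100 most abundant transcripts took 38.1% of all FPKM at day 12 and 35.8% at day 2, and 51 of them were the same at both ages.

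**Figure D1:**
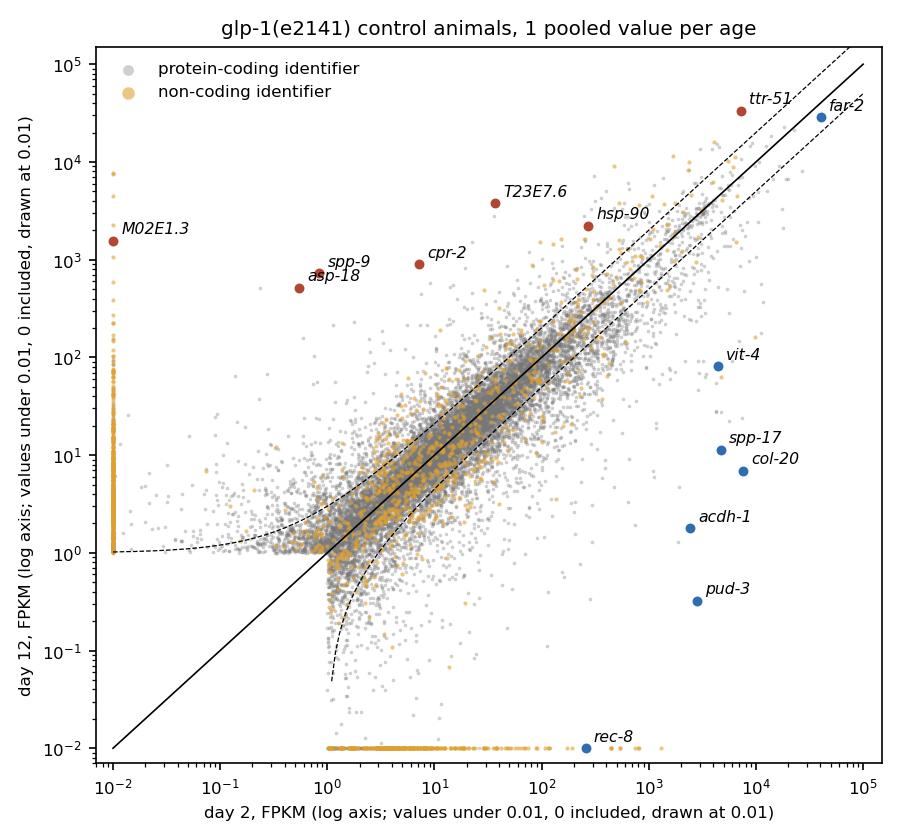
Level of every member at day 12 (vertical) against day 2 (horizontal), in FPKM on log axes, 1 pooled value per age. The solid line marks equal levels and the dashed lines the 2-fold limits on the log2(FPKM + 1) scale. Most points lie along the line, with pud-3, col-20, acdh-1 and spp-17 far below it and asp-18, spp-9 and T23E7.6 far above it, and non-coding transcripts crowd the edges where one age is listed at 0.

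An exact 0 can be a failed estimate, and 1120 members were listed at 0 at one age. Of these, 224 stood at 10 FPKM or more at the other age, 188 of them non-coding. In double mutants, 85 of the 224 (37.9%) differed at least 2-fold in the same direction and 34 in the opposite one. Of 2875 members that were above 0 at both ages, past 2-fold and at 10 FPKM or more at one age, 80.5% differed at least 2-fold the same way in double mutants and 28 the opposite way. Named transcripts listed at 0 are therefore given by their values alone.

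Most defining markers of the germline were near the floor. Of 15 germline markers 9 were under 1 FPKM at both ages, and their summed level was 35.1 FPKM at day 12 and 275 at day 2. One transcript, NM_001268800 of rec-8 (chromosome IV), a subunit of the meiotic cohesin ring, made up 257 of the 275 and was listed at 0 at day 12. Among L4440 libraries it reached 189 FPKM in one of day 12 and 234.03 in one of day 2 and was listed at 0 in the other of each age, so its level split libraries of the same age. Other germline markers above 1 FPKM in control animals were glh-1 (16.9 FPKM at day 12 and 6.28 at day 2) and gld-1 (3.82 and 1.07). With them were pos-1 (5.46 and 0.447), oma-2 (4.25 and 4.32) and syp-1 (1.12 and 2.46), so the lower sum at day 12 rests on rec-8. Of 9 sperm markers 8 were under 1 FPKM at both ages, and the exception, spe-11, which encodes a sperm factor needed by the embryo, stood at 12.7 FPKM at day 12 and 0.300 at day 2. Summed markers of neurons came to 1361 FPKM at day 12 and 839 at day 2, those of the intestine to 653 and 1259, those of body wall muscle to 116 and 592, those of the hypodermis to 34.8 and 55.0 and those of the pharynx to 27.5 and 36.0. The neuron sum was carried by the synaptobrevin gene snb-1 (1317 FPKM at day 12 and 793 at day 2). The intestine sum leaves out vit-6, whose transcript NM_001028103 had 2606 FPKM at day 12 but no usable value at day 2. Most of that sum came from act-5, at 463 FPKM at day 12 and 846 at day 2. In whole animals, fewer cells of a type and less RNA per cell cannot be told apart, and the part of such shifts in the results below was not tested.

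The L4440 libraries show how far the same age step goes in single libraries. Their values moved by a median of 0.458 on the log2 scale between the ages as deposited, so they were centred to one median and their changes are given relative to it. Of 18572 transcripts tested with limma, 1260 (6.78%) rose and 2210 (11.9%) fell at day 12 at a Benjamini-Hochberg adjusted p below 0.05. With the values as deposited the split was 4193 and 1352, and with quantile normalization 1743 and 1961. Leaving out any one L4440 library left 657 to 796 rising and 1295 to 1743 falling. Both libraries of one age lay at least 2-fold apart in 17.6% of these transcripts at day 12 and in 14% at day 2, which is a measure of spread that the pooled control values hide. The fit held 16420 of the 17683 control members. Of 2080 members at least 2-fold higher in control animals, 702 (33.8%) rose in L4440 animals and 27 fell, and the 702 are 57.7% of the members that rose there. Of 2423 members at least 2-fold lower, 1314 (54.2%) fell and 18 rose, and the 1314 are 61.2% of the members that fell.

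The larger the control difference, the more often the L4440 libraries carried a call in the same direction. Among coding transcripts, 86.5% of the 111 with a control difference beyond −4 fell in L4440 animals, against 80.9% of 152 between −4 and −3, 73.2% of 388 between −3 and −2 and 51.7% of 1514 between −2 and −1. On the upper side 68.9% of the 61 beyond 4 rose, 53.8% of 93 between 3 and 4, 52.6% of 346 between 2 and 3 and 31.8% of 1203 between 1 and 2. Across 15273 coding transcripts the control and L4440 differences correlated with Pearson's r = 0.72 and Spearman's rho = 0.665, a description of transcripts from different libraries processed in separate tables. Across 1147 non-coding transcripts r was 0.167, and only 12.2% of those higher and 11.2% of those lower in control animals carried the same call in L4440 animals.

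**Figure D2:**
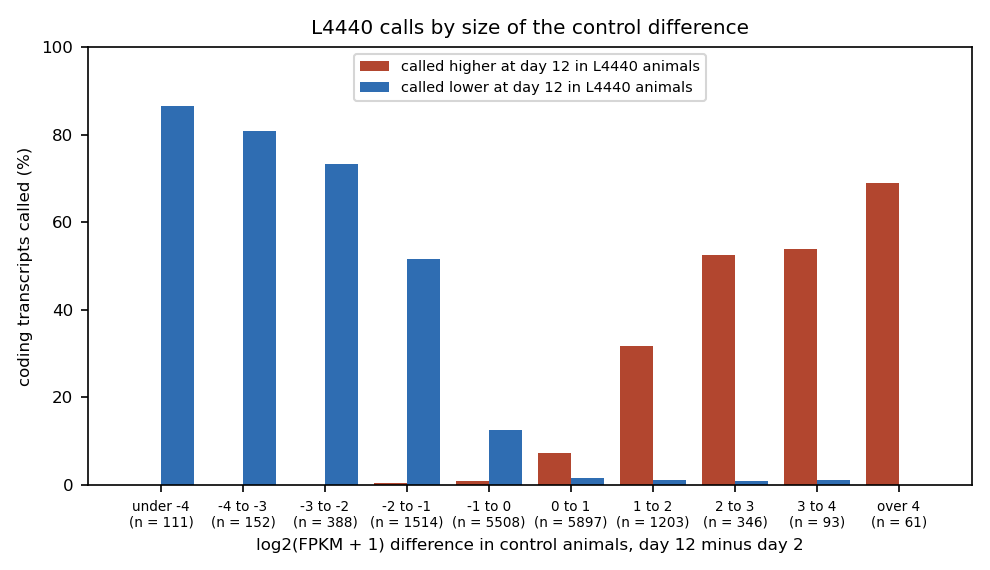
Share of coding transcripts called higher or lower at day 12 in the L4440 libraries (vertical, percent, limma adjusted p below 0.05), by size of the log2(FPKM + 1) difference in control animals (horizontal, day 12 minus day 2, number of transcripts in brackets). The share called lower reaches 86.5% at the far left and the share called higher 68.9% at the far right, and calls against the control direction stay at or under 1.58% in every bin.

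The genes furthest above their young level at day 12 encode secreted and lysosomal proteins in several cases. The SCP-like gene scl-19 stood at 517 FPKM at day 12 and 0.234 at day 2, and its chromosome V neighbour asp-18, an aspartyl protease gene, at 517 FPKM at day 12 and 0.540 at day 2. Both were close to the floor in young animals and abundant in old ones. The saposin-like gene spp-9 (chromosome X) stood at 732 FPKM at day 12 and 0.842 at day 2. L4440 animals had 2991 and 2989 FPKM at day 12 and 30.3 and 29.8 at day 2, and it rose there by 6.06 ± 0.60 (log2, SE, limma adjusted p = 0.00232). The cathepsin B-like protease gene cpr-2 (chromosome V) stood at 906 FPKM at day 12 and 7.10 at day 2. The chitinase gene cht-1 (chromosome X) stood at 232 FPKM at day 12 and 1.76 at day 2, and the saposin-like genes spp-27 and spp-21 at 215 against 1.14 FPKM and 157 against 0.592 FPKM, day 12 given first. All 7 genes rose in L4440 animals as well. Other abundant genes of the group have no common name: T23E7.6 (chromosome X) stood at 3816 FPKM at day 12 and 36.5 at day 2, F20E11.17 (chromosome V) at 2805 FPKM at day 12 and 36.0 at day 2 and C18D11.6 (chromosome III) at 1532 FPKM at day 12 and 22.6 at day 2. T23E7.6 reached 3697 and 4212 FPKM at day 12 and 64.8 and 102 at day 2 in the L4440 libraries, so old and young libraries did not overlap. Another 5 of the 15 were listed at 0 at day 2, namely M02E1.3 at 1563 FPKM, C06H5.14 at 155, F10C1.8 at 86.4, F16B3.2 at 83.2 and C09G9.8 at 74.3 FPKM at day 12. Of these 5, C06H5.14 rose in L4440 animals, F16B3.2 was listed at 0 in all 4 L4440 libraries, and the other 3 did not pass. Old L4440 libraries disagreed on those 3: M02E1.3 stood at 3106 FPKM in one day 12 library and at 0 in the other, and was listed at 0 at day 2. Over the 15 genes, 14 were in the L4440 fit and 11 rose there.

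The genes furthest below their young level included collagen genes and some metabolic genes. The gene pud-3 (chromosome V) stood at 0.324 FPKM at day 12 and 2820.0 at day 2, and its relative pud-4 at 27.6 FPKM at day 12 and 4217 at day 2. The acyl-CoA dehydrogenase gene acdh-1 (chromosome I), which acts in a side route of propionate breakdown, stood at 1.77 FPKM at day 12 and 2424 at day 2. The collagen gene col-20 (chromosome II) stood at 6.92 FPKM at day 12 and 7529 at day 2. Each of these was abundant in young animals and far lower in old ones. The saposin-like gene spp-17 (chromosome I) stood at 11.4 FPKM at day 12 and 4676 at day 2 and the invertebrate-type lysozyme gene ilys-5 (chromosome X) at 24.2 FPKM at day 12 and 7408 at day 2. The folate transporter gene folt-2 stood at 0.763 FPKM at day 12 and 229 at day 2 and gba-4, a glucocerebrosidase gene, at 1.29 FPKM at day 12 and 292 at day 2. Genes without a common name in the same range were R07E5.4 (0.334 and 285 FPKM), C32H11.4 (3.34 and 644) and T13F3.6 (6.88 and 1095). In L4440 animals 14 of the 15 most lower genes fell, and the exception was rec-8. The folate transporter gene gave 1.40 and 1.09 FPKM at day 12 and 269 and 219 at day 2, a change of −7.29 ± 0.25 (adjusted p = 0.000276).

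**Figure D3:**
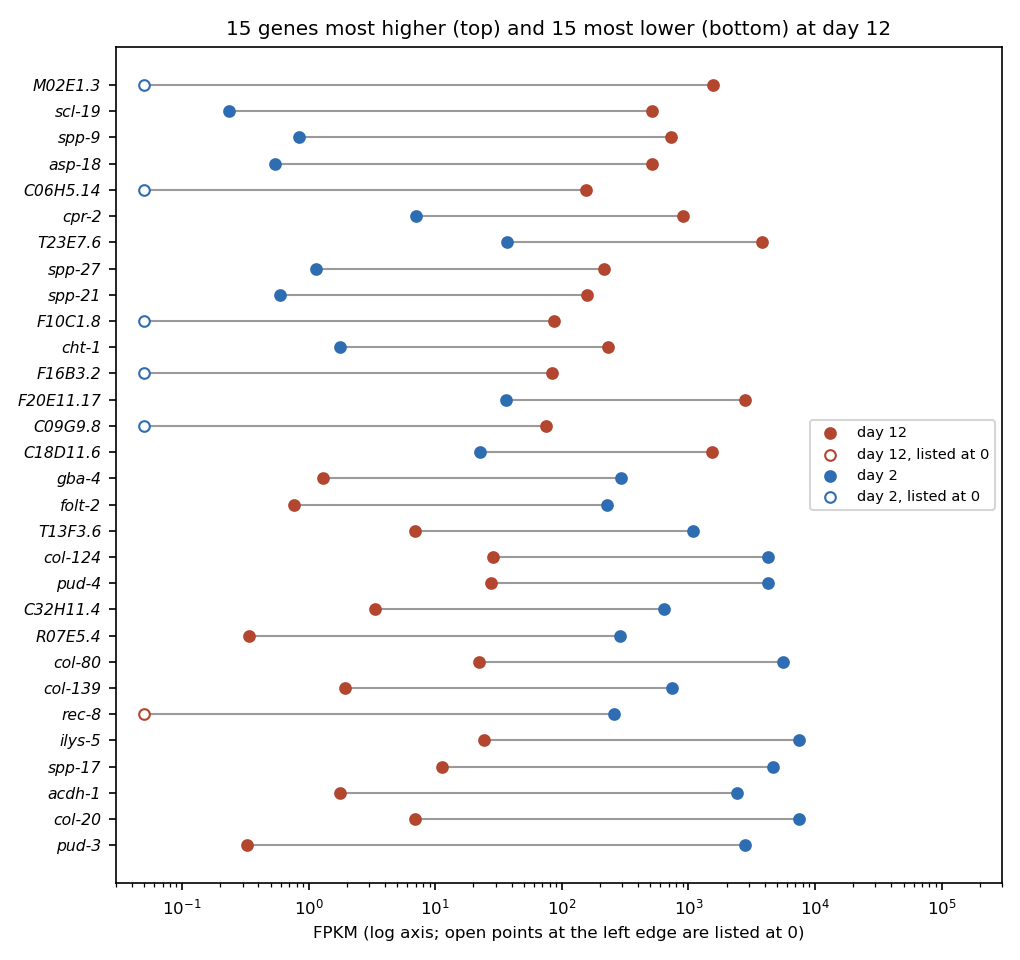
Pooled FPKM at day 12 and day 2 (horizontal, log axis) of the 15 coding genes most higher and the 15 most lower at day 12, ordered by their log2(FPKM + 1) difference. Open points are values listed at 0. The upper genes span from 74.3 to 3816 FPKM at day 12, and the lower ones from 0 to 28.6 FPKM.

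Transcripts of the cuticle were mostly lower. Of 158 cuticle collagen transcripts with status OK, 80 reached 1 FPKM, of which 3 were at least 2-fold higher and 52 at least 2-fold lower, with a median difference of −1.83 against 0.00 over all transcripts. Their summed level was 3766 FPKM at day 12 and 101426 at day 2, or 0.196% and 4.57% of all FPKM. The most abundant, col-119 (chromosome IV), stood at 365 FPKM at day 12 and 11512 at day 2, and col-181 (chromosome X) at 561 FPKM at day 12 and 11095 at day 2. The collagen genes col-139, col-80 and col-124 stood at 1.94 against 737 FPKM, 22.2 against 5627 FPKM and 28.6 against 4248 FPKM. All 5 were lower by more than 16-fold. The 3 higher members were low at both ages, among them dpy-5 (5.22 FPKM at day 12 and 0.483 at day 2) and col-84 (2.29 FPKM at day 12 and 0.262 at day 2). Among L4440 animals 2 of 74 tested transcripts rose and 45 fell. Collagens share sequence, so the levels of single members are uncertain. Of 13 hypodermis and seam cell transcripts 5 were lower and 0 higher (median −0.59).

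Yolk protein transcripts were measurable for 2 of 6. The vitellogenin genes vit-4 and vit-1 (chromosome X) stood at 82.0 FPKM at day 12 and 4391 at day 2 and at 52.9 FPKM at day 12 and 1244 at day 2. Among L4440 animals vit-4 gave 285 and 384 FPKM at day 12 and 4002 and 2155 at day 2, so the ages did not overlap there. The other 4 transcripts, vit-6 included, carried the status HIDATA at day 2, the tool's mark for loci with too many fragments, and have no usable value there. At day 12 vit-2 stood at 2790 FPKM, vit-5 at 2198 and NM_001028103 of vit-6 at 2606, so a difference cannot be given for the more abundant yolk genes. The list of intestinal transcripts, which holds vit-1 and vit-4 too, leaned lower: 0 of 27 were at least 2-fold higher and 11 lower (median −0.87). The gut transcription factor gene elt-2 itself stood at 44.4 FPKM at day 12 and 36.9 at day 2, the peptide transporter gene pept-1 at 36.9 and 36.0, and the gut esterase gene ges-1 at 44.3 and 167.

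Transcripts of mitochondrial energy production were lower as a block. Of 54 transcripts of oxidative phosphorylation, 0 were at least 2-fold higher and 42 lower, with a median of −1.39 and a summed level of 19120.2 FPKM at day 12 and 54489 at day 2. The range was narrow, from −2.12 in cox-6C to 0.00 in the assembly factor gene cox-15. The most abundant were the ATP synthase subunit gene hpo-18 (2417 FPKM at day 12 and 8334 at day 2) and ucr-11, of complex III (1383 FPKM at day 12 and 5358 at day 2). The cytochrome c oxidase gene cox-6C stood at 429.6 FPKM at day 12 and 1877 at day 2. Among L4440 animals 0 of 53 tested transcripts rose and 39 fell.

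Glycolysis, fatty acid synthesis and the propionate and methionine routes leaned lower too. Of 33 transcripts of glycolysis and the glyoxylate cycle 1 was higher and 20 lower (median −1.22), and in L4440 animals 0 of 31 tested transcripts rose and 22 fell. The gluconeogenic fructose bisphosphatase gene fbp-1 stood at 126 FPKM at day 12 and 630.5 at day 2, and the most abundant members, the aldolase transcript aldo-2 and the carboxykinase transcript pck-2, at 1406 against 2409 FPKM and 798 against 1370.2 FPKM. The single higher one was a minor transcript of the hexokinase gene hxk-1 (NM_001025936, 4.93 against 1.27 FPKM), whose transcripts summed to 55.3 FPKM at day 12 and 55.4 at day 2. Of 26 fatty acid synthesis and desaturation transcripts 0 were higher and 15 lower (median −1.26). The elongase gene elo-6 stood at 265 FPKM at day 12 and 3092 at day 2 and the delta-9 desaturase gene fat-7 at 0.880 FPKM at day 12 and 15.3 at day 2, while the abundant desaturases fat-2 and fat-4 were lower by less, at 3183 against 6221 FPKM and 2207 against 4811 FPKM. Of 26 propionate and methionine cycle transcripts 3 were higher and 13 lower (median −1.01). Beside acdh-1, this list held cbs-1, the cystathionine beta-synthase gene, which was higher (69.3 FPKM at day 12 and 18.1 at day 2). One transcript of the S-adenosylmethionine synthetase gene sams-3 (NM_068471) was also higher (13.1 against 4.82 FPKM), although the gene's transcripts summed to 30.3 FPKM at day 12 and 34.7 at day 2.

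Fat breakdown genes leaned lower, with members in both directions. Of 85 fatty acid oxidation and lipase transcripts 11 were higher and 28 lower, with a median of −0.32. Over all transcripts 14.2% were higher and 15.6% lower. The lysosomal lipase gene lipl-5 stood at 238 FPKM at day 12 and 2776 at day 2. By contrast, 2 genes of carnitine palmitoyltransferases, which carry fatty acids into mitochondria, were higher: cpt-4 stood at 153 FPKM at day 12 and 2.44 at day 2 and cpt-3 at 154 FPKM at day 12 and 18.9 at day 2. Among L4440 animals cpt-4 gave 189 and 206 FPKM at day 12 and 3.18 and 6.29 at day 2 and rose by 4.64 ± 0.42 (adjusted p = 0.00187), while cpt-3 gave 71.4 and 82.7 FPKM at day 12 and 29.1 and 63.2 at day 2 and did not pass (adjusted p = 0.761). Over the whole list 3 of 82 tested transcripts rose there and 31 fell.

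Sarcomere transcripts leaned lower. Of 79 muscle transcripts 4 were higher and 37 lower, with a median of −0.93 and a summed level of 7403 FPKM at day 12 and 29299 at day 2. The troponin C gene pat-10 stood at 1303 FPKM at day 12 and 7238 at day 2 and the myosin light chain gene mlc-2 at 620.3 FPKM at day 12 and 3665 at day 2. The troponin T gene tnt-2 was further below its young level, its transcript NM_001029532 standing at 22.6 FPKM at day 12 and 462 at day 2. Among the body wall muscle markers unc-54, the main myosin heavy chain gene, stood at 67.0 FPKM at day 12 and 413 at day 2, unc-15, the paramyosin gene, at 22.1 and 134, and myo-3, a second myosin heavy chain gene, at 20.6 and 31.4. The difference was thus unequal among thick filament genes. Of 4 higher transcripts one was NM_001267513 of unc-52 (2.51 against 0.307 FPKM), but the transcripts of that gene summed to 12.3 FPKM at day 12 and 51.96 at day 2. Among L4440 animals 2 of 73 tested transcripts rose and 23 fell. Pharyngeal transcripts, which include muscle of the feeding organ, were 3 of 21 lower and 0 higher (median −0.11).

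Ribosomal protein transcripts were near their young level in control animals, and most translation factor transcripts were within 2-fold of it. Of 85 ribosomal protein transcripts 1 was higher (NR_002385 of rpl-12, with a non-coding identifier) and 1 lower (NM_182165 of rpl-26, listed at 0 at day 12), and the summed level was 268616 FPKM at day 12 and 265463 at day 2. The most abundant, rpl-39, stood at 21298 FPKM at day 12 and 22624 at day 2. The list's median was 0.02 in control animals and 0.83 in L4440 animals, where 14 of 83 rose and 0 fell, and the difference between the pairs was not tested. Of 51 translation factor transcripts 5 were higher and 1 lower (median 0.35), with the elongation factor gene eef-1A.1 at 4655 FPKM at day 12 and 3118 at day 2. Proteasome subunits were higher in 0 and lower in 2 of 35 transcripts, and their median of −0.03 turned to 0.09 with both ages scaled to one upper quartile.

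Chaperone genes were higher in a few cases by a wide margin. Of 61 chaperone transcripts outside the small heat shock family 8 were higher and 1 lower (median 0.15). The share higher was thus near the 14.2% of all transcripts, and the share lower was under their 15.6%. Among L4440 animals 4 of 60 tested transcripts of this list rose and 2 fell. The cytosolic hsp-90 (chromosome V) stood at 2234 FPKM at day 12 and 271 at day 2, and in L4440 animals at 2050.3 and 2229 FPKM at day 12 and 220.3 and 346 at day 2, a rise of 2.42 ± 0.31 (adjusted p = 0.00523). Picked after their values were seen, the heat-inducible hsp-70 stood at 45.4 against 6.25 FPKM and cct-4, a subunit of the folding chamber for actin and tubulin, at 259.9 against 72.4 FPKM, day 12 first. Small heat shock transcripts went both ways, with 5 of 16 higher and 4 lower. Of these hsp-12.6 stood at 164 FPKM at day 12 and 10.1 at day 2 and hsp-16.2 at 193 FPKM at day 12 and 34.2 at day 2, whereas hsp-25 and hsp-12.1 (NM_001083144) were lower, at 129.7 against 360.3 FPKM and 5.05 against 34.9 FPKM. Among L4440 animals hsp-12.6 gave 135.2 and 176 FPKM at day 12 and 8.23 and 75.4 at day 2 and did not pass (adjusted p = 0.230), with the young libraries far apart. The list's median was 0.62 in control and −0.33 in L4440 animals.

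Lysosomal genes leaned lower and autophagy genes did not. Of 23 vacuolar ATPase transcripts, which encode the proton pump that acidifies lysosomes, 1 was higher and 10 lower (median −0.92), and vha-12 and vha-10 stood at 193 against 521 FPKM and 652 against 1707 FPKM. The higher one was vha-18 (5.94 FPKM at day 12 and 1.02 at day 2). Of 26 aspartyl and cathepsin protease transcripts 3 were higher and 11 lower: asp-3 and asp-13 stood at 1381 against 5041 FPKM and 79.9 against 948 FPKM, the abundant asp-6 at 5813 FPKM at day 12 and 5437 at day 2, and asp-18 and cpr-2 were the far higher ones given above. Of 32 autophagy transcripts 4 were higher and 0 lower (median 0.38). The LC3-like gene lgg-1 stood at 3181 FPKM at day 12 and 3137 at day 2, and NM_001268679, the main transcript of the cargo receptor gene sqst-1, at 349 FPKM at day 12 and 138 at day 2. Among L4440 animals 0 of 31 autophagy transcripts rose and 1 fell.

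Detoxification families held members in both directions, with the conjugating enzymes leaning down. Of 68 cytochrome P450 transcripts 22 were higher and 16 lower. The P450 gene cyp-35B1 stood at 329 FPKM at day 12 and 18.8 at day 2 and cyp-33B1 at 24.6 FPKM at day 12 and 0.0899 at day 2, whereas cyp-35A2 and cyp-35A3 of the same gene family stood at 79.6 against 303 FPKM and 2.03 against 48.3 FPKM. Among L4440 animals cyp-35B1 gave 115 and 130.5 FPKM at day 12 and 49.5 and 57.4 at day 2 and did not pass (adjusted p = 0.114). Of 63 glucuronosyltransferase transcripts 8 were higher and 15 lower (median −0.27), with ugt-44 at 46.8 FPKM at day 12 and 363 at day 2 and ugt-8 at 71.1 FPKM at day 12 and 4.43 at day 2. Of 45 glutathione S-transferase transcripts 4 were higher and 16 lower (median −0.74), and gst-4 and gst-10 stood at 92.9 against 675 FPKM and 31.4 against 655 FPKM. Antioxidant and metal genes were 3 of 31 higher and 13 lower (median −0.71). The mitochondrial peroxiredoxin gene prdx-3 stood at 92.9 FPKM at day 12 and 456.8 at day 2, and the extracellular superoxide dismutase gene sod-4 (NM_001268074) at 180.4 FPKM at day 12 and 73.7 at day 2. The metallothionein genes, both abundant, differed in direction in control animals, mtl-1 by less than 2-fold: mtl-1 stood at 15615 FPKM at day 12 and 9153 at day 2 and mtl-2 at 5091 FPKM at day 12 and 12602 at day 2. Among L4440 animals mtl-1 changed by 0.17 ± 0.57 and mtl-2 by 0.17 ± 0.55, and neither passed (limma adjusted p = 0.874 and 0.865).

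Immune effectors had the widest range of differences among the 38 lists. Of 82 transcripts of lysozymes, saposin-like proteins and antimicrobial peptides 29 were higher and 27 lower, with differences from −8.56 in spp-17 to 8.64 in spp-9. The most abundant saposin-like genes, spp-5 and spp-14 (chromosome X), stood at 3333 against 17341 FPKM and 6757 against 14509.7 FPKM. Picked after their values were seen, the lysozyme gene lys-7 stood at 15205 against 4295 FPKM, while lys-1 and lys-2 stood at 1385 against 5782 FPKM and 282 against 3369 FPKM, and the defensin-like abf-2 at 4999 against 399 FPKM. The lysozyme genes therefore split in direction. C-type lectins, which bind sugars, leaned lower: of 219 transcripts with status OK 94 reached 1 FPKM, 15 of them higher and 44 lower (median −0.89). The abundant clec-63 and clec-1 stood at 1623 against 6101 FPKM and 572 against 2566 FPKM, and clec-258 at 121 FPKM at day 12 and 10.4 at day 2. Among L4440 animals 5 of 85 lectin transcripts rose and 27 fell, and 12 of 82 of the lysozyme list rose and 26 fell.

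Insulin-like peptides leaned upward, and FMRFamide-like neuropeptides were higher about as often as all transcripts but lower less often. Of 36 transcripts of insulin-like peptides, ligands of the receptor DAF-2, 15 were higher and 2 lower, with a median of 0.78. The gene ins-20 stood at 37.1 FPKM at day 12 and 0.232 at day 2, ins-11 at 35.1 FPKM at day 12 and 2.23 at day 2 and the more abundant ins-7 (NM_001268489) at 367 FPKM at day 12 and 181 at day 2, whereas ins-33 and ins-35 were lower, at 0.583 against 9.71 FPKM and 2.29 against 13.4 FPKM. Among L4440 animals 10 of 34 tested transcripts rose and 1 fell, with ins-11 at 50.99 and 47.4 FPKM at day 12 and 1.70 and 6.09 at day 2. Of 36 FMRFamide-like neuropeptide transcripts 6 were higher and 1 lower (median 0.13), beside 14.2% higher and 15.6% lower over all transcripts. The neuropeptide gene flp-6 stood at 439 FPKM at day 12 and 166 at day 2 and flp-10 at 687 FPKM at day 12 and 324 at day 2, while the most abundant, flp-28, stood at 799 FPKM at day 12 and 805 at day 2. Synaptic and neuronal transcripts were near their young level, with 6 of 84 higher and 8 lower, and their median of −0.02 turned to 0.10 with one upper quartile. Among them the odorant pathway genes odr-3, a G protein, and odr-10, the diacetyl receptor, stood at 10.9 FPKM at day 12 and 1.33 at day 2 and at 5.74 FPKM at day 12 and 0.244 at day 2.

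Transthyretin-like transcripts past 2-fold were mostly higher, while hedgehog-related ones were near the shares of all transcripts. Both are large families of mostly secreted worm proteins. Of 49 transthyretin-like transcripts 15 were higher and 5 lower, and the family's summed level was 73961 FPKM at day 12 and 40421 at day 2. Of these ttr-51 (chromosome IV), the most abundant transcript of old animals, stood at 33497 FPKM at day 12 and 7208 at day 2. Most of the difference in the sum came from ttr-51. L4440 animals had 49713 and 50921 FPKM at day 12 and 7158 and 9925 at day 2, and it rose there by 2.05 ± 0.31 (adjusted p = 0.00867). The gene ttr-37 stood at 209.7 FPKM at day 12 and 44.7 at day 2 and ttr-44 at 128 FPKM at day 12 and 1047 at day 2, and ttr-15 was level at 7084 against 7461 FPKM. The list's median of −0.07 turned to 0.05 with one upper quartile. Among L4440 animals 8 of 48 tested transthyretin-like transcripts rose and 6 fell, and ttr-37 did not pass (limma adjusted p = 0.824). Of 44 hedgehog-related transcripts 8 were higher and 8 lower, beside 14.2% higher and 15.6% lower over all transcripts. The ligand-like genes grd-5 and grd-14 stood at 91.1 against 2157 FPKM and 1.44 against 106 FPKM, whereas NM_001269905 of the patched-related gene ptr-22 stood at 66.9 FPKM at day 12 and 0.274 at day 2. Among L4440 animals ptr-22 gave 33.99 and 48.4 FPKM at day 12 and 0.245 and 0.440 at day 2.

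Most transcripts of nuclear hormone receptors, transcription factors, histone methylation and argonautes were within 2-fold, as were most of all transcripts, 29.8% of which were past it. Histones were past 2-fold more often than not. Of 223 nuclear hormone receptor transcripts 26 were higher and 12 lower. The receptor gene nhr-6 (NM_065330) stood at 15.6 FPKM at day 12 and 0.596 at day 2 and nhr-114 (NM_001029072) at 4.14 FPKM at day 12 and 19.5 at day 2. Of 54 transcripts of transcription factors tied to ageing 2 were higher and 6 lower, among them mxl-2 (70.8 against 32.5 FPKM) and NM_001264441 of blmp-1 (4.17 against 21.6 FPKM), and the abundant zip-2 and xbp-1 (NM_001083176) stood at 394 against 473 FPKM and 394 against 382 FPKM. Of 51 histone methylation transcripts 3 were higher and 1 lower: set-12 stood at 7.14 FPKM at day 12 and 0.972 at day 2, and the transcripts of met-1 itself summed to 6.34 FPKM at day 12 and 5.41 at day 2. Argonaute and small RNA transcripts were 2 of 46 higher and 4 lower, with the RNA polymerase gene rrf-2 at 18.7 FPKM at day 12 and 4.89 at day 2. The medians of the last 3 lists, −0.09, −0.06 and −0.11, turned to 0.03, 0.04 and 0.01 with one upper quartile. Histone transcripts were 8 of 25 higher and 7 lower, with the histone H3 variant gene his-74 at 30.6 FPKM at day 12 and 3.44 at day 2 and his-38 at 19.4 FPKM at day 12 and 133 at day 2. Since poly-A RNA was selected, most histone mRNAs, which lack a poly-A tail, are outside this measurement. F-box, MATH and BATH genes, which encode substrate adaptors of ubiquitin ligases, were 21 of 166 higher and 20 lower, led by fbxa-24 (118 FPKM at day 12 and 3.86 at day 2).

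Germline and sperm lists were small because most of their transcripts were under 1 FPKM, 38 of 65 and 70 of 95 with status OK. Of 27 germline and oocyte transcripts 8 were higher and 3 lower. The chondroitin proteoglycan genes cpg-7 and cpg-8 (NM_071863) stood at 713 against 243 FPKM and 262 against 46.2 FPKM, and the oocyte gene pos-1 at 5.46 FPKM at day 12 and 0.447 at day 2. Among L4440 animals cpg-8 gave 375 and 463 FPKM at day 12 and 72.9 and 126 at day 2, without overlap of the ages. Of 25 sperm transcripts 3 were higher and 3 lower.

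**Figure D4:**
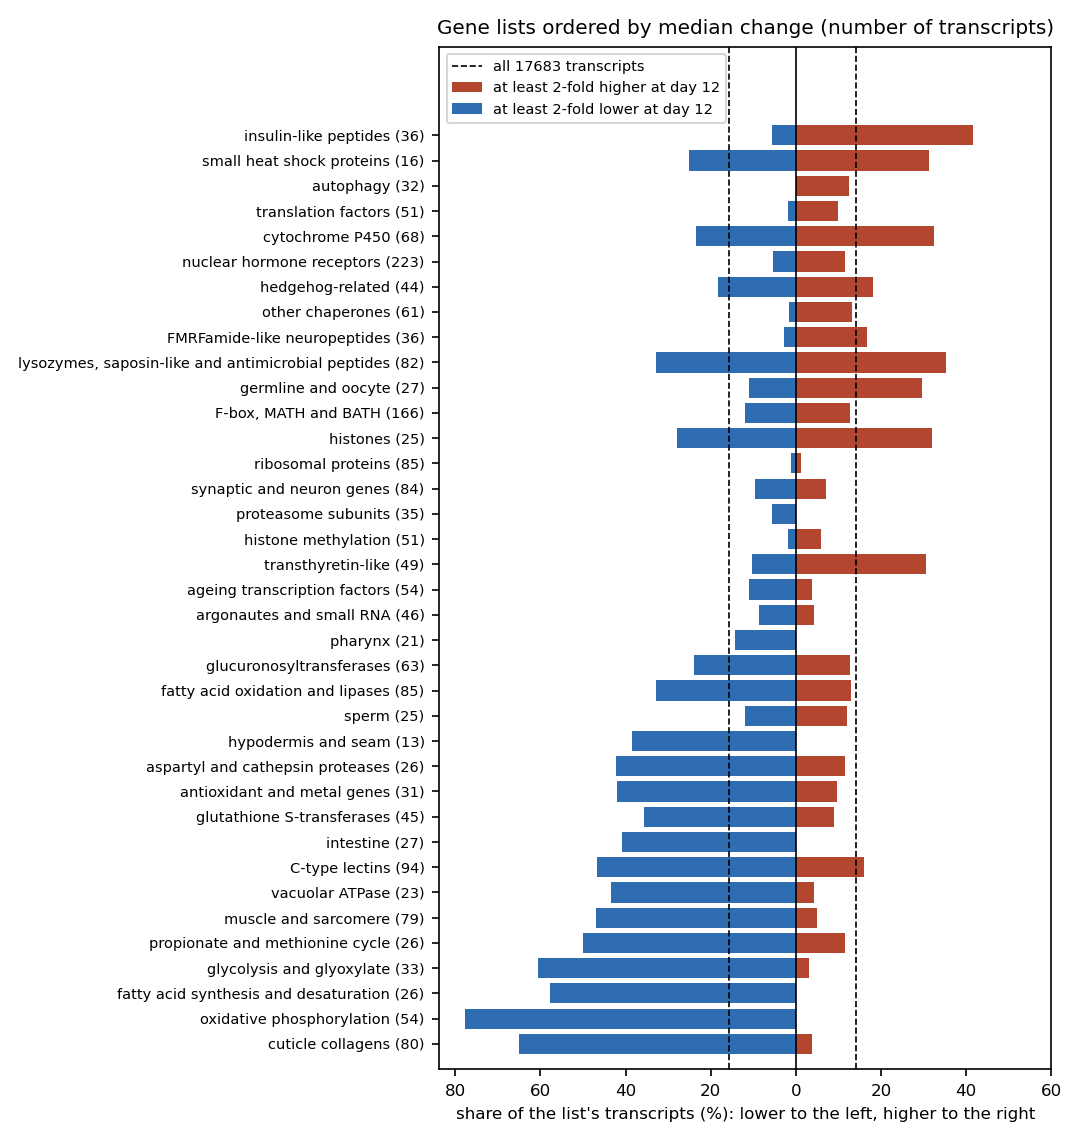
Share of each gene list's transcripts that were at least 2-fold higher (right) or lower (left) at day 12 in control animals (horizontal, percent), for every list but the vitellogenins, ordered by median difference from the highest at the top. Dashed lines mark 14.2% and 15.6%, the shares over all 17683 transcripts. Insulin-like peptides lie at the top with 15 of 36 higher, and oxidative phosphorylation and collagens at the bottom with 42 of 54 and 52 of 80 lower.

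Some of the genes with 4-fold differences lie close to each other, although the 15 most higher and 15 most lower genes are in none of these runs. Gene order was taken from RefSeq (WBcel235), and a run was counted where 3 or more coding genes differed at least 4-fold in one direction with at most 2 coding genes between them. Of 398 genes that were 4-fold higher, 28 lay in 8 runs, and of 506 that were 4-fold lower, 51 lay in 14 runs. No share for genes in another order was computed, so these counts are a description. The longest lower run, on chromosome X, holds sur-5, the histone genes his-38 and his-40, and the saposin-like genes spp-3, spp-2, spp-4 and spp-5, with summed levels of 4243 FPKM at day 12 and 25482 at day 2. In this run spp-3 stood at 520.1 FPKM at day 12 and 4459 at day 2 and spp-4 at 7.40 FPKM at day 12 and 387 at day 2. On chromosome IV, 5 of 6 coding genes in a row, F55G11.8, dod-22, F55G11.2, dod-17 and K10D11.2, summed to 7.62 FPKM at day 12 and 239 at day 2. The names dod-17 and dod-22 stand for genes downstream of the FOXO factor DAF-16, and these stood at 1.35 against 49.6 FPKM and 0.794 against 55.3 FPKM. The glutathione S-transferase genes gst-26, gst-27 and gst-28 on chromosome II stood at 21.3 against 191 FPKM, 32.2 against 365 FPKM and 4.15 against 46.7 FPKM.

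Most higher runs lay on chromosome V, which also held 193 of the 534 coding transcripts that were at least 4-fold higher, the most of any chromosome. The uncharacterised genes C54F6.15, C54F6.20, C54F6.18, C54F6.17 and C54F6.5 summed to 2359 FPKM at day 12 and 108 at day 2, led by C54F6.5 (1191 FPKM at day 12 and 76.4 at day 2) and C54F6.15 (816 FPKM at day 12 and 19.2 at day 2). Both known clusters of antimicrobial peptide genes that act in the hypodermis were there. The caenacin genes cnc-1, cnc-5, cnc-4 and cnc-2 summed to 6421 FPKM at day 12 and 631 at day 2, and nlp-31, nlp-30, nlp-29 and nlp-28 to 13184 and 1599.6. In the first cluster cnc-4 stood at 3173 FPKM at day 12 and 377 at day 2 and cnc-2 at 2787 FPKM at day 12 and 247 at day 2, and in the second nlp-29 stood at 3272 FPKM at day 12 and 559 at day 2 and nlp-28 at 5295 FPKM at day 12 and 649.9 at day 2. Among L4440 animals nlp-29 gave 1289 and 1679.6 FPKM at day 12 and 925 and 1459.7 at day 2, a change of −0.19 ± 0.37 (adjusted p = 0.776), and cnc-2 gave 815 and 1801 FPKM at day 12 and 537 and 849 at day 2, so the ages overlapped for both. Double mutants had nlp-29 at 2860.1 FPKM at day 12 and 513 at day 2 and cnc-2 at 1403 FPKM at day 12 and 109.5 at day 2. Untreated animals had nlp-29 at 513 FPKM at day 12 and 242 at day 2, nlp-30 at 4.80 FPKM at day 12 and 4.15 at day 2, nlp-31 at 575 FPKM at day 12 and 107 at day 2, nlp-28 at 983 FPKM at day 12 and 303 at day 2 and cnc-1 at 635 FPKM at day 12 and 6.32 at day 2. There nlp-30 was nearly level between the ages, while in control animals it stood at 373 FPKM at day 12 and 36.5 at day 2. Of the 4 caenacin genes of the run cnc-1 alone rose in L4440 animals and of the 4 nlp genes 0 passed in limma, with an unadjusted p under 0.05 in 2 of them. Over all runs, 14 of 26 genes of higher runs rose and 0 fell in L4440 animals, and 38 of 50 genes of lower runs fell and 0 rose. Among all coding transcripts with a control difference above 2, 52.6% to 68.9% rose there, depending on its size. Below −2, 73.2% to 86.5% fell, so the runs lay within the shares of all coding transcripts of that size. The genes of the runs were chosen by their control values, so only the L4440, double mutant and untreated values are from other samples. Of these, only the L4440 values were tested.

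**Figure D5:**
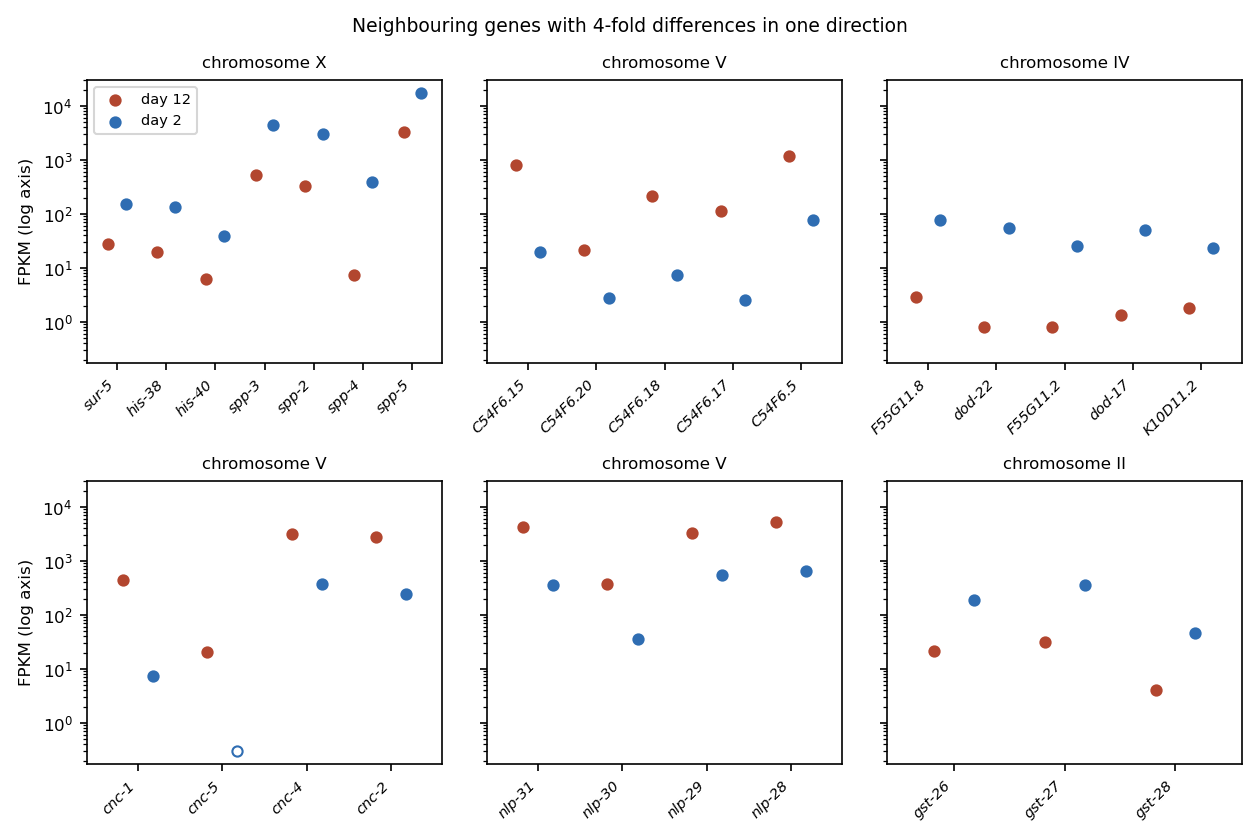
Pooled FPKM at day 12 (left point) and day 2 (right point) of each gene in 6 runs of neighbouring genes, in RefSeq order, on a shared log axis. Open points are listed at 0. In the saposin-like, dod and gst runs every day 12 point lies below its day 2 point, and in the C54F6, cnc and nlp runs every day 12 point lies above.

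The other pooled pairs give the same values side by side. Across 12050 coding transcripts present in the table of untreated animals, the control difference correlated with theirs at r = 0.831 and rho = 0.767, and of 2839 past 2-fold in control animals 93.3% had the same sign there and 19 were past 2-fold in the opposite direction. Against double mutants r was 0.795 and rho 0.769 over 15962 coding transcripts, and 91.7% of 4123 had the same sign. For 1717 non-coding transcripts r was 0.287 against double mutants, and 46.5% of 1138 past 2-fold had the same sign. Each correlation is over transcripts, which are not independent replicates, and the pairs share transcript identifiers and the tools listed for the series. Some of the genes furthest higher in control animals had lower day 12 levels in double mutants. There asp-18 stood at 13.4 FPKM at day 12 and 0.396 at day 2, scl-19 at 15.7 FPKM at day 12 and 0.426 at day 2 and cpr-2 at 46.2 FPKM at day 12 and 0.879 at day 2, against 517, 517 and 906 FPKM at day 12 in control animals. In the same animals T23E7.6 stood at 3289.8 FPKM at day 12 and 34.03 at day 2 and pud-3 at 1.40 FPKM at day 12 and 347 at day 2. With 1 pooled value per age and genotype these differences were not tested.

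A few coding transcripts went one way in control animals and were called the other way in L4440 animals, 18 of 1703 higher ones and 7 of 2165 lower ones. They were singled out by this contrast after their values were seen. The methionine synthase gene metr-1 (NM_063952) stood at 87.7 FPKM at day 12 and 42.1 at day 2 in control animals. L4440 animals had 32.97 and 37.7 FPKM at day 12 and 73.7 and 75.3 at day 2, a change of −1.59 ± 0.18 (limma adjusted p = 0.00352). The control side is 1 pooled value per age without spread, and in double mutants the gene stood at 29.3 FPKM at day 12 and 41.5 at day 2. The lectin gene clec-52 stood at 45.5 FPKM at day 12 and 120.4 at day 2 in control animals, and L4440 animals had 134 and 183 FPKM at day 12 and 42.6 and 46.4 at day 2 (adjusted p = 0.0317). Untreated animals had clec-52 at 75.7 FPKM at day 12 and 207 at day 2, and double mutants at 25.7 and 42.9. The gene dpf-6 stood at 25.6 FPKM at day 12 and 7.18 at day 2 in control animals, and L4440 animals had 11.1 and 11.1 FPKM at day 12 and 15.6 and 18.1 at day 2 (adjusted p = 0.00780). Untreated animals had dpf-6 at 15.9 FPKM at day 12 and 10.7 at day 2, and double mutants at 12.5 and 7.57. For NM_001268451 of Y11D7A.10 the tables also differ in level, with 338 FPKM at day 12 and 864 at day 2 in control animals, while L4440 animals had 38.5 and 51.7 FPKM at day 12 and 0.01004 and 0.0197 at day 2. Double mutants had this transcript at 352 FPKM at day 12 and 1043 at day 2.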

How the data were processed

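mRNA of whole glp-1(e2141) animals was measured at day 12 and day 2 of adulthood. The deposited control table gives 1 FPKM value and 1 status per RefSeq transcript and age, per the file headers, made by the authors from 2 libraries per age. The submitters' processing notes name CASAVA 1.8, BWA, TopHat, TopHat2 and Cuffdiff, with no role or order. The sources used here do not state build, annotation or strandedness, so overlapping genes cannot be separated. The tables of L4440 animals, double mutants and untreated animals were read as deposited FPKM as well. The header of the RNA interference table names no unit, and FPKM was inferred from the tools in the submitters' processing notes and from its values.

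From these, log2(FPKM + 1) differences were computed as day 12 minus day 2. The table of untreated animals also holds a log2 fold change and a q-value deposited by the authors, per the file headers, from a test that is not stated, and neither was used here. A transcript counted as higher or lower from 2-fold on. The 8 libraries of the RNA interference table (4 groups of 2) were centred to one median, filtered at FPKM of 1 or more in 2 libraries and fitted with limma 3.58.1 (trend) in R 4.3.3, with Benjamini-Hochberg adjustment over all 18572 transcripts tested. Since nothing states separate cultures, p-values measure only the spread between these samples. The fit was tested on simulated data. Tables were made with Python 3.11.15. Tables were normalized separately, so levels set side by side across them are only roughly comparable.

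Named genes are the 15 most higher and 15 most lower among coding transcripts with a symbol, status OK and 10 FPKM or more at one age (1 transcript per gene, with the sum over the gene past 2-fold in the same direction), the 5 most abundant at each age, and, among the members of each of 38 lists and without the 10 FPKM minimum or the coding limit, the 2 most higher, the 2 most lower and the 2 most abundant, and cell type markers. Members and lists were chosen with earlier results of these data known. Alternatives were pseudocounts, FPKM minimums, scaling, sums per gene symbol, a 4-fold limit and leaving out libraries.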

Additional observations from a re-analysis of the deposited data

Results flagged for a closer look

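Some named transcripts went one way with age in control animals and the other way in double mutants, which carry met-1(n4337) beside glp-1(e2141). Each has 1 pooled value per age and genotype, so the difference was not tested. M02E1.3 stood at 0 FPKM at day 12 and 1226 at day 2 in double mutants, against 1563 at day 12 and 0 at day 2 in control animals. F10C1.8 stood at 0 and 133 FPKM in double mutants, against 86.4 and 0 in control animals, day 12 given before day 2. The transcript NM_182165 of rpl-26 stood at 7.03 FPKM at day 12 and 0 at day 2 in double mutants, against 0 and 4.82 in control animals. NM_182278 of flp-1 stood at 0.00179 and 7.40 FPKM in double mutants, against 5.77 and 1.30 in control animals. NM_001129624 of flp-12 stood at 2.91 and 0.009999 FPKM in double mutants, against 0 and 6.45 in control animals. NM_182042 of met-1 stood at 0.0866 and 3.37 FPKM in double mutants, against 3.47 and 0.781 in control animals. M02E1.3 and F10C1.8 also split the L4440 libraries of day 12, at 3106 and 0 FPKM and at 1011 and 0 FPKM. The other transcripts are single ones of their genes. In control animals the transcripts of rpl-26 summed to 3332 FPKM at day 12 and 3491 at day 2, and those of flp-12 to 216 and 241. Those of flp-1 summed to 121 and 97.9, and those of met-1 to 6.34 and 5.41.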

How the results depend on the processing

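The control counts of 2506 higher and 2758 lower transcripts became 1253 and 1691 with a pseudocount of 5, and 885 and 958 at a 4-fold limit. With FPKM of 5 or more at one age 1648 were higher and 2156 lower, and with a pseudocount of 0.1 the counts were 3042 and 3260. Scaling both ages to one upper quartile moved the median to 0.108 and the counts to 2778 and 2495. Using only rows above 0 at both ages, a choice made after seeing the data, gave 1788 and 2356. The L4440 counts of 1260 rising and 2210 falling became 4193 and 1352 with values as deposited, and with no filter on FPKM 1353 rose and 5252 fell. Leaving out one L4440 library gave 657 to 796 rising and 1295 to 1743 falling, where the lone library of an age is assumed to vary like the other groups. The cause of these shifts was not tested. With the replicate number as a block 1155 rose and 2145 fell. Correlations between same-numbered libraries ran from −0.0597 to 0.13, so no clear pairing by number was seen. Such correlations cannot settle whether same-numbered libraries shared a culture, which the labels do not state.

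Summing FPKM over the transcripts of a gene symbol turned the sign of 5 of 212 named transcripts, by construction of the sum: eef-1G (0.441), sams-3 (−0.188), hxk-1 (−0.00339), unc-52 (−2) and eri-6 (−0.487). The sum moved another 20 fold changes, by 1.5-fold or more, without turning them. A pseudocount of 5 moved 85 of the 212, a pseudocount of 0.1 moved 53 and one upper quartile moved 0. The control table has 1 pooled value per age, its depth is unknown and no test of its differences could be made. The search for promoter motifs was not run, because no sequences were used here.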
